A study of Mus musculus with 17 samples.

Results

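The cytosolic ribosome of skeletal muscle was followed here through the mRNAs of its proteins. A gene was taken as a member when the array's annotation gave a probe set exactly 1 symbol of the form Rpl or Rps followed by a digit, or Rplp0, Rplp1, Rplp2 or Rpsa, leaving out the kinases named Rps6k and the numbered pseudogenes. Where a gene had several such probe sets, the brightest on average across the 17 arrays stood for it. The rule found 63 of the 19938 genes measured, and it used no difference between groups. Of the 63, 33 are proteins of the large 60S subunit, 21 are proteins of the small 40S subunit, 6 are paralogues (Rpl3l, Rpl7l1, Rpl10l, Rpl39l, Rps27l and Rps4l, the last a transcribed pseudogene) and 3 carry other symbols of the same form (Rpl32l, Rps19bp1 and Rps23rg1). Of 80 proteins of the mouse ribosome that were listed, 54 are members. Of the other 26, Fau was measured but has no symbol of this form, and the rest, among them Rpl3 and Rpl11, were not matched to a probe set with a single symbol.

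The ribosome reads mRNA and builds protein, the small subunit decoding the message and the large subunit joining the amino acids. Its proteins are made in matched amounts, and their mRNAs are abundant in every cell. These mRNAs begin with a run of pyrimidines, the terminal oligopyrimidine (TOP) motif, through which insulin and nutrients, acting by the kinase mTOR and the RNA-binding protein Larp1, control how much of them is translated. An array measures the mRNA and not its translation.

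Arrays of 17 male wildtype C57BL/6N mice aged 5 to 6 months, 1 for each mouse, measured the mRNA of skeletal muscle to ask what insulin deficiency and the lipid-lowering drug bezafibrate, an agonist of the peroxisome proliferator-activated receptors, changed. The control group (Con,SD, n = 7) was mock-injected with the buffer and ate standard chow. The diabetic group (STZ,SD, n = 5) had been injected at 10 to 16 weeks of age with 65 mg/kg streptozotocin, a toxin of the pancreatic beta cells, on 5 days in a row, and ate the same chow. The treated group (STZ,BEZ, n = 5) had the same injections and, from 2 weeks later and for 8 weeks, chow that held 0.25% or 0.5% bezafibrate. The labels do not say which mouse ate which strength, and neither they nor the study's methods say which muscle was taken. The study's methods differ from the labels. The methods describe controls without treatment, a smaller dose of streptozotocin and the stronger bezafibrate chow alone. Streptozotocin models a loss of insulin by killing beta cells, and both diabetic groups carried it, so the drug alone was not measured.

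Values are log2 expression levels, and a difference of 1 is a doubling. The arrays were brought by the authors to nearly 1 distribution, so that every difference is relative to the other genes of the array, and the number of arrays limits the precision. The 18 skeletal muscle markers had a mean level between 12.48 and 12.97 on every array. The 14 hepatocyte markers stood at 11.81 on Con,SD array 1, against 7.65 to 9.92 on the other 16 arrays, and the testis markers at 8.17, against 5.32 to 5.87. Values of the members were stable within groups, with a median SD of 0.13, 0.12 and 0.11 in Con,SD, STZ,SD and STZ,BEZ, beside 0.14, 0.12 and 0.12 over all genes. In bulk muscle RNA, fewer cells of a type and less RNA per cell cannot be told apart.

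Diabetic muscle had more mRNA of many ribosomal proteins of both subunits. Between STZ,SD and Con,SD, a comparison that asks what insulin deficiency changed, 27 of the 63 members were higher in the diabetic mice and 4 were lower at an adjusted p under 0.1 in limma, while 32 did not pass. Over all genes 25.8% were called, 13.9% higher and 11.9% lower, against 42.9% and 6.35% of the members. The median difference of the members was 0.15, and that of all genes was -0.01. The 60S proteins gave 17 higher and 1 lower of 33 (median 0.18), and the 40S proteins gave 10 higher and 1 lower of 21 (median 0.20). Of the 9 paralogues and other symbols, 0 were higher and 2 were lower (median 0.01). The plot of all members shows that the differences of either subunit spread from below 0 to above 0.7.

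**Figure D1:**
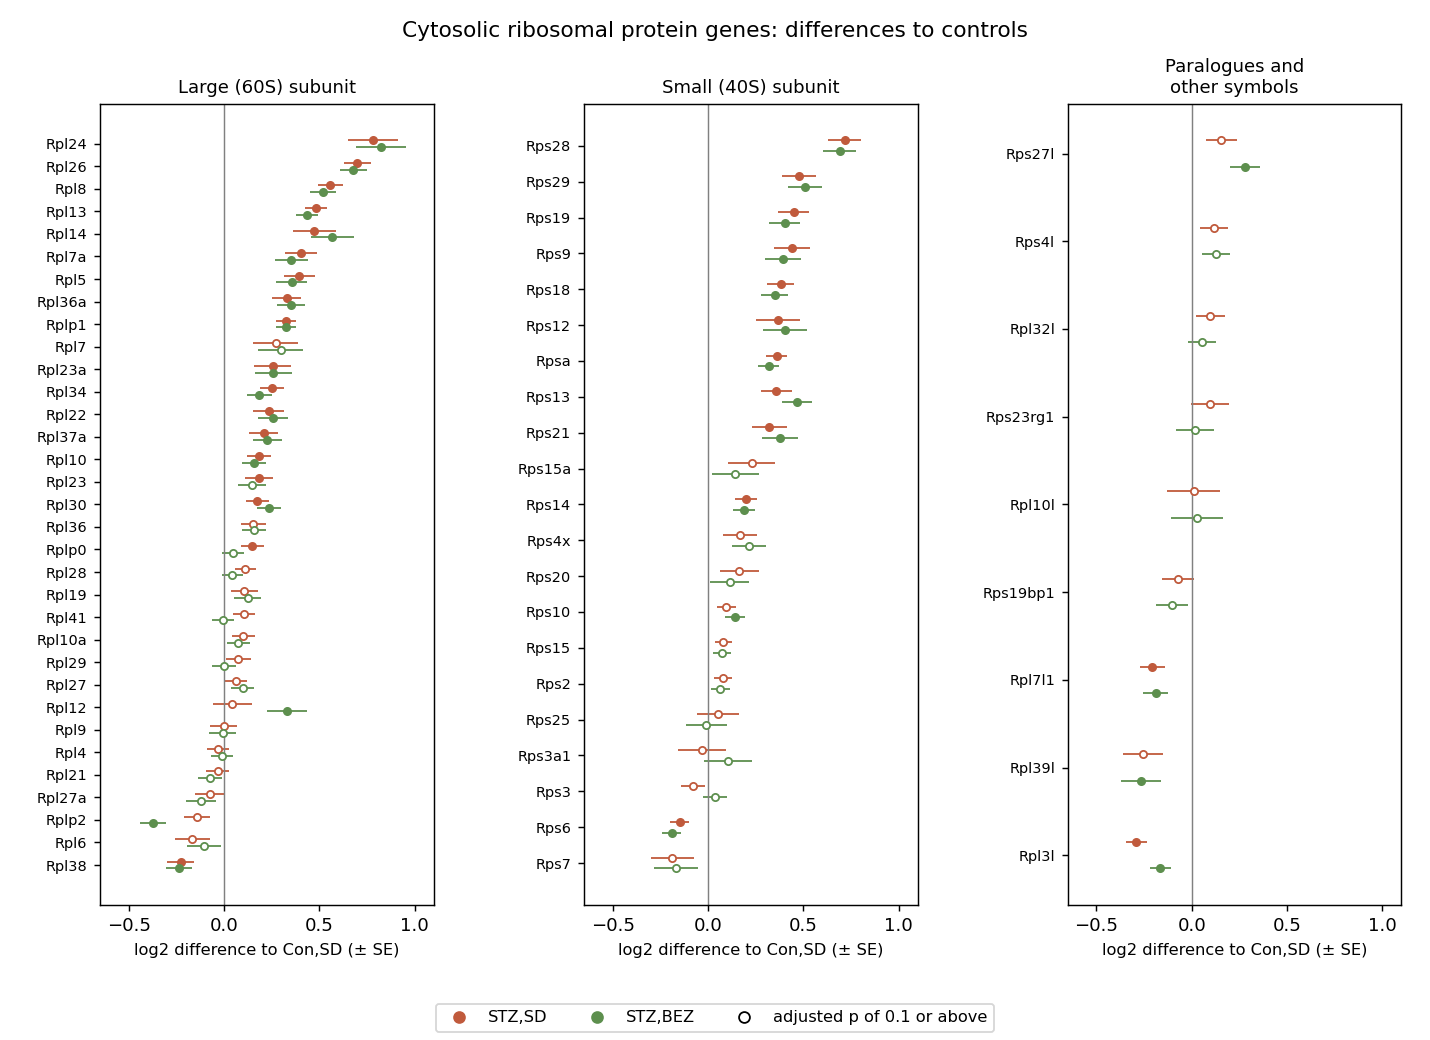
Log2 difference to Con,SD (horizontal axis) of every member in STZ,SD (red) and STZ,BEZ (green), with the SE from limma as bars, for the 60S proteins, the 40S proteins, and the paralogues and other symbols. Filled points passed an adjusted p under 0.1. Rpl24, Rpl26 and Rps28 lie farthest to the right in both groups, and the 2 groups of points lie close together for most genes.

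Among the 60S proteins, Rpl24, a protein of the bridges that join the subunits, had the largest rise. Its log2 levels in STZ,SD were 10.49, 10.19, 10.25, 10.12 and 9.94, against a lowest, median and highest value of 9.15, 9.35 and 9.89 in Con,SD. The groups did not overlap, and the difference was 0.78 ± 0.13 (SE, limma adjusted p = 0.000499), or 1.72-fold. Rpl26, which lies near the tunnel through which the new chain leaves, stood at 9.48, 9.58, 9.36, 9.30 and 9.30 in STZ,SD and at 8.55, 8.68 and 8.90 (lowest, median, highest) in Con,SD. Every diabetic mouse was above every control, with a difference of 0.70 ± 0.07 (limma adjusted p = 7.8e-06). Rpl8, a core protein close to the site where the peptide bond forms, read 10.68, 10.53, 10.50, 10.36 and 10.37 in STZ,SD and 9.84, 9.91 and 10.00 in Con,SD. It also showed no overlap, and rose by 0.56 ± 0.07 (limma adjusted p = 3.97e-05).

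Rpl13 and Rpl14 of the same subunit rose by 0.48 ± 0.06 and 0.47 ± 0.11 in limma, the first without overlap and the second with its lowest diabetic value of 7.08 under the highest control value of 7.17. Rpl7a rose by 0.40 ± 0.08 and Rpl5 by 0.40 ± 0.08. Rpl5 travels with Rpl11 and the 5S RNA and is known as a sensor of failed ribosome assembly, since the free complex binds the p53 regulator Mdm2. In both genes the diabetic mice lay above all controls. Smaller rises that passed the test were those of Rpl36a (0.33 ± 0.08), Rpl22 (0.23 ± 0.08) and Rpl10 (0.18 ± 0.06), in which 1 or more diabetic mice lay within the range of the controls. The calls of Rpl22 and Rpl10 were lost without STZ,SD array 2 (0.20 and 0.15) or array 3 (0.22 and 0.17), and without Con,SD arrays 1, 3 and 4 together (0.23 and 0.18).

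Among the 40S proteins, Rps28, which sits where the mRNA leaves the subunit, rose most. Its levels in STZ,SD were 10.11, 10.27, 10.15, 9.80 and 10.02, and the lowest, median and highest in Con,SD were 9.17, 9.32 and 9.64. The groups did not overlap, with a difference of 0.72 ± 0.09 (limma adjusted p = 3.97e-05), or 1.65-fold. Rps29, a small zinc-binding protein, followed with 10.12, 9.91, 9.95, 10.02 and 9.85 in STZ,SD against 9.29, 9.41 and 9.84 in Con,SD. The lowest diabetic value lay just above the highest control value, and the rise was 0.48 ± 0.09 (limma adjusted p = 0.00139). Rps19, the protein most often mutated in Diamond-Blackfan anaemia, rose by 0.45 ± 0.08, from 8.46, 8.74 and 8.90 in Con,SD to 9.01, 9.23, 9.23, 9.16 and 9.12.

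The other called 40S rises named here were of similar size. Rps9, which lies near the entry of the mRNA, rose by 0.44 ± 0.09, Rps18 by 0.38 ± 0.07, Rps12 by 0.37 ± 0.11, Rps13 by 0.36 ± 0.08 and Rps21 by 0.32 ± 0.09 in limma. Rpsa, which also serves as a laminin receptor at the cell surface, read 10.88, 10.81, 10.99, 10.73 and 10.73 in STZ,SD and 10.38, 10.48 and 10.54 in Con,SD. It showed no overlap and a rise of 0.36 ± 0.05 (limma adjusted p = 0.000248). Rps4x gave 0.17 ± 0.09 and its paralogue Rps4l 0.12 ± 0.07, and neither passed the test. The other, dimmer single-symbol probe set of Rps4l gave 0.28 and was called higher in the test over all such probe sets.

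The falls were of 2 subunit proteins and 2 paralogues. Rpl3l, the paralogue of Rpl3 that striated muscle makes, stood at 11.10, 11.05, 11.24, 11.28 and 11.21 in STZ,SD and at 11.36, 11.46 and 11.55 in Con,SD. Every diabetic mouse was below every control, and Rpl3l fell by 0.29 ± 0.06 (limma adjusted p = 0.00177). Its partner Rpl3 was not among the members. The 7 probe sets that list Rpl3 together with other symbols differed by -0.37 to -0.16, and 5 of them were called lower in the test over all probe sets. A pair of these, both at -0.37, held identical values and was counted as separate probe sets. Rpl38, a 60S protein known for its part in the translation of Hox mRNAs, read 12.06, 12.04, 11.96, 11.70 and 11.87 in STZ,SD against 12.05, 12.16 and 12.32 in Con,SD. The groups touched at 1 diabetic mouse, and Rpl38 fell by 0.23 ± 0.07 (limma adjusted p = 0.0293). A second quantile normalization ended that call (-0.15), as did fitting the replicate number as a block (-0.19).

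Rps6, the 40S protein that the S6 kinases phosphorylate after insulin, stood at 13.01, 13.12, 13.06, 12.92 and 12.99 in STZ,SD and at 13.08, 13.17 and 13.24 in Con,SD. One diabetic mouse lay among the controls, and the fall was small: Rps6 fell by 0.15 ± 0.05 (limma adjusted p = 0.0451). Its call did not survive a second quantile normalization (-0.07), nor the fit with the replicate block (-0.14), the fits without STZ,SD array 4 (-0.12) or Con,SD arrays 1, 3 and 4 (-0.14), or significance analysis of microarrays (SAM). Rpl7l1, a nucleolar relative of Rpl7 that takes part in assembly of the large subunit, fell by 0.21 ± 0.07, from 9.11, 9.35 and 9.48 in Con,SD to 9.21, 9.07, 8.97, 9.08 and 9.22. Its ranges overlapped, and the call was lost without STZ,SD array 3 (-0.17) and with the replicate block (-0.16).

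The remaining paralogues did not pass in this comparison. Rpl39l, best known from the testis, differed by -0.26 ± 0.11 (limma adjusted p = 0.101), and its control range of 4.33 to 5.00 overlapped that of the diabetic mice, 4.22 to 4.53. Rps27l, a p53 target related to Rps27, differed by 0.16 ± 0.08 (limma adjusted p = 0.184). Rps19bp1, a nucleolar partner of Rps19, differed by -0.07 ± 0.08.

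The acidic stalk of the large subunit, which recruits the elongation factors, is built of Rplp0 and of Rplp1 and Rplp2 in pairs. Its 3 genes gave different values, and Rplp2 was read from 1 probe set with a mean level of 7.73. Rplp1 and Rplp0 had mean levels of 12.63 and 12.90. Rplp1 stood at 12.71, 12.81, 12.87, 12.74 and 12.68 in STZ,SD and at 12.34, 12.45 and 12.52 in Con,SD, a rise of 0.32 ± 0.05 with no overlap (limma adjusted p = 0.000324). Rplp0 rose by 0.15 ± 0.06 (limma adjusted p = 0.0887), a call that was lost under SAM and median centring (0.13), among others, and without STZ,SD array 1 (0.13), 2 (0.15) or 3 (0.11), and without any 1 of Con,SD arrays 1, 2, 3, 4, 5 and 7 (0.14 to 0.15). Rplp2 read 7.67, 7.84, 7.66, 7.72 and 7.81 in STZ,SD against 7.70, 7.87 and 8.03 in Con,SD, and its difference of -0.14 ± 0.07 did not pass (limma adjusted p = 0.172).

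**Figure D2:**
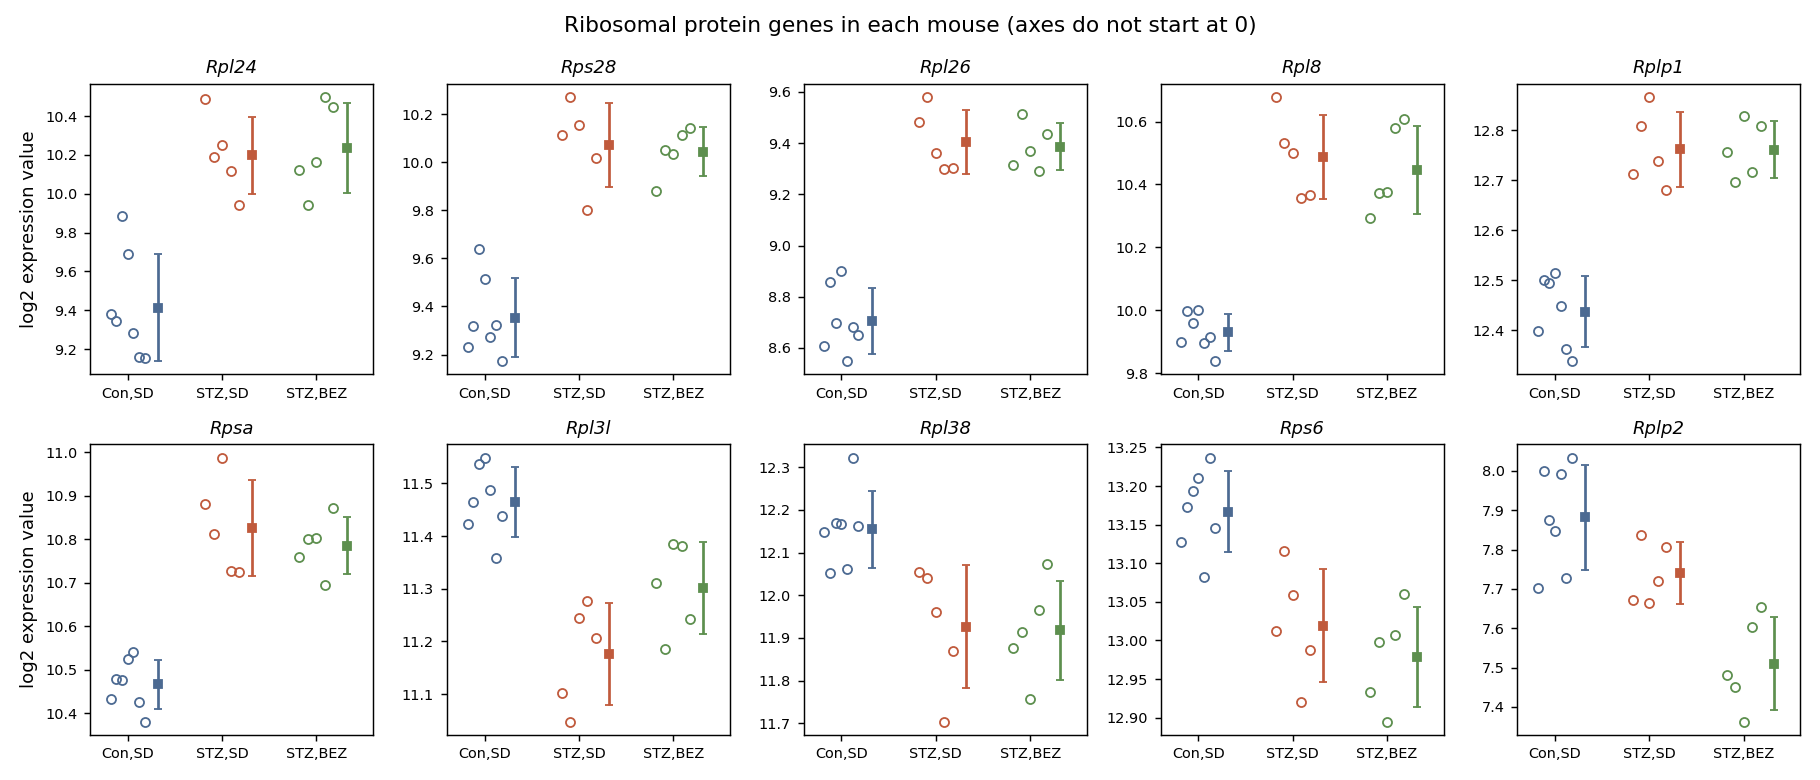
Log2 expression (vertical axis, not starting at 0) of 10 members in each mouse of Con,SD, STZ,SD and STZ,BEZ. Open circles are mice, and squares with bars are the mean ± SD. Rpl24, Rps28, Rpl26, Rpl8, Rplp1 and Rpsa show both diabetic groups above all controls, Rpl3l shows the STZ,SD mice below them, and Rplp2 shows the STZ,BEZ mice lowest.

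Across the members, 14 of 63 had every STZ,SD mouse above every control and 1 had every STZ,SD mouse below, where 4.87% and 3.43% of all genes did so. The mice differed among themselves. The median deviation of the 63 members from their Con,SD mean was 0.21, 0.25, 0.20, 0.05 and 0.08 in the STZ,SD mice, and in Con,SD it ran from -0.08 to 0.10 with a median of -0.03. Con,SD arrays 3 and 4 were the highest controls at 0.09 and 0.10, above STZ,SD arrays 4 and 5. Without STZ,SD array 2 or array 3 the members called higher numbered 20, and without Con,SD array 6 the members called lower numbered 7.

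Ribosomal protein genes have many processed copies in the genome, and probe sets of 1 gene can differ in the copies they match, so the separate probe sets were set side by side. The part of such copies in the values was not tested. The 63 members had 219 probe sets with 1 symbol, and 39 members had several. Of these 39, 36 had differences of 1 sign in all their probe sets in STZ,SD against Con,SD, and Rpl21, Rpl27a and Rps2 had both signs. Among the 19 of them called higher, 13 had every probe set called higher, and 0 of the 39 had calls in both directions. The 14 probe sets of Rps12 gave 0.31 to 0.67, the 9 of Rpl13 gave 0.34 to 0.54 and the 7 of Rps28 gave 0.51 to 0.75, all called higher. The 4 probe sets of Rpl38 gave -0.27 to -0.20, all called lower, and 6 of the 8 probe sets of Rps6 were called lower. Rpsa was less uniform, with 0.07 to 0.36 and 2 of 5 called, and so was Rps9, with 0.14 and 0.44 and 1 of 2 called.

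Probe sets with several symbols, which the rule left out, numbered 239 for symbols of this kind. In a test over all 35556 probe sets, 40.2% of them were higher and 5.02% were lower in STZ,SD, against 12.7% and 11.7% of all probe sets. The 239 are not separate genes, since 35 list Rpl29, 32 list Rpl21 and 17 each list Rpl7a, Rps2 and Rpl17. Of the 96 called higher, 17 list Rpl7a and 15 list Rps2. Some probe sets hold identical values, and some also list a small nucleolar RNA, so these shares are not a count of genes. They cover 36 symbols, of which 23 had a probe set called higher and 4 had one called lower.

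Next, STZ,BEZ was compared with STZ,SD, to ask what the drug changed in diabetic muscle. The members of the 2 diabetic groups had close levels, and 0 of the 63 passed in limma, where 0.0201% of all genes did (4 genes). SAM also called 0. The differences ran from -0.23 to 0.29 with a median of -0.01, 28 of them above 0 and 35 below. At an unadjusted p under 0.05, 2 members passed, beside 5.69% of all genes.

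The first of these was Rplp2, read from 1 probe set, with 7.48, 7.45, 7.36, 7.60 and 7.65 in STZ,BEZ. All 5 treated mice lay below the 5 untreated diabetic mice, a pattern 0.487% of all genes showed, and the difference was -0.23 ± 0.08 (unadjusted p = 0.00704, limma adjusted p = 0.778). The second was Rpl12, a protein at the base of the stalk, which read 6.40, 6.48, 6.47, 6.48 and 6.55 in STZ,BEZ and 6.46, 6.16, 6.34, 5.93 and 6.06 in STZ,SD. Its ranges overlapped at the highest STZ,SD mouse, with a difference of 0.29 ± 0.11 (unadjusted p = 0.02, limma adjusted p = 0.81). The 8 probe sets that list Rpl12 together with another symbol did not share that difference, with 7 below 0 and 1 above 0 (-0.08 to 0.08) and 0 called. The 1 above 0 lists Snora65, a small nucleolar RNA gene inside Rpl12. Rpl3l differed by 0.13 ± 0.06 and Rpl41, the shortest of the ribosomal proteins, by -0.11 ± 0.06.

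Genes that had moved most in the diabetic mice stayed near their diabetic level under the drug. Rpl24 read 10.12, 9.94, 10.17, 10.50 and 10.45 in STZ,BEZ, and Rps28 read 9.88, 10.05, 10.03, 10.11 and 10.14. Both sets of values lie inside or near the STZ,SD range given above and over all controls. Rpl3l, the largest fall in STZ,SD, read 11.31, 11.18, 11.38, 11.38 and 11.24 in STZ,BEZ, and its highest treated mice lay inside the control range. The differences of Rplp1, Rpsa and Rps6 between STZ,BEZ and STZ,SD were 0.00 ± 0.06, -0.04 ± 0.06 and -0.04 ± 0.05. A p that misses the threshold does not show that the groups had the same level.

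The comparison of STZ,BEZ with Con,SD set treated diabetic muscle beside the controls, which are the same 7 arrays as above. Here 28 members were higher and 6 were lower in limma and 29 did not pass, where 21.6% of all genes were called, 13.1% higher and 8.45% lower. The median difference of the members was 0.14. The 60S proteins gave 16 higher and 2 lower, the 40S proteins 11 and 1, and the paralogues and other symbols 1 and 3. All treated mice lay above all controls in 12 members and below them in 2, where 6.01% and 2.5% of all genes did so.

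The largest rises were in Rpl24 (0.82 ± 0.13), Rps28 (0.69 ± 0.09), Rpl26 (0.68 ± 0.07), Rpl14 (0.57 ± 0.11), Rpl8 (0.52 ± 0.07), Rps29 (0.51 ± 0.09), Rps13 (0.47 ± 0.08) and Rpl13 (0.44 ± 0.06). Rps27l, at 10.72, 10.79, 10.91, 10.98 and 10.85 against 10.35, 10.56 and 10.77 in Con,SD, rose by 0.28 ± 0.08 (limma adjusted p = 0.0241), with 1 treated mouse inside the control range. Rpl12, read from 1 probe set with a mean level of 6.26, rose by 0.33 ± 0.10 (limma adjusted p = 0.0404). Its lowest treated mouse, at 6.4025, lay barely above the highest control, at 6.4011.

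Of the 6 members that were lower, Rplp2, with 1 probe set at a mean level of 7.73, had the largest fall. Its treated mice all lay under the lowest control at 7.70, and Rplp2 fell by 0.37 ± 0.07 (limma adjusted p = 0.00188). Rps6, with treated mice between 12.89 and 13.06, also lay under every control and fell by 0.19 ± 0.05 (limma adjusted p = 0.0163). Rpl39l fell by 0.27 ± 0.11, Rpl38 by 0.24 ± 0.07, Rpl7l1 by 0.19 ± 0.07 and Rpl3l by 0.16 ± 0.06. The call of Rpl39l was lost without any 1 of the STZ,BEZ arrays or without Con,SD array 1, 3 or 4 (-0.29 to -0.20), that of Rpl3l without STZ,BEZ array 2 or 5 or Con,SD array 3, and that of Rpl7l1 without STZ,BEZ array 2, 4 or 5 or Con,SD array 5 or 7. A second quantile normalization ended the calls of Rps6, Rpl38, Rpl39l and Rpl3l (-0.11, -0.18, -0.17 and -0.14). Without STZ,BEZ array 2 or array 5 the members called lower numbered 3. Against the controls, 25 members were called higher and 4 lower in both diabetic groups. Rplp2, Rpl39l, Rps27l and Rps10 passed in STZ,BEZ and not in STZ,SD, and the direct comparison of the diabetic groups called none of them. The single-symbol probe set of Rpl12 did the same, but the 8 that list Rpl12 with another symbol were called higher in STZ,SD too (0.26 to 0.48). The value of 0.48 came from the probe set that lists Snora65, and the others reached 0.33 at most.

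Cells carry a second set of ribosomes inside mitochondria, with proteins of their own encoded in the nucleus. Of 77 measured genes of mitochondrial ribosomal proteins, 2 were higher (2.6%) and 33 were lower (42.9%) in STZ,SD than in Con,SD (median difference -0.17). Over all genes 13.9% were higher and 11.9% lower. Of the 63 cytosolic members 27 were higher and 4 lower (median 0.15). On single arrays the median deviation of the mitochondrial set from the controls was -0.07, -0.30, -0.23, -0.08 and -0.16 in STZ,SD, where that of the cytosolic members was above 0 on all 5. Between STZ,BEZ and STZ,SD both sets had 0 calls, with median differences of 0.11 and -0.01. Against the controls STZ,BEZ had 9 mitochondrial genes higher (11.7%) and 21 lower (27.3%), where 13.1% and 8.45% of all genes were.

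**Figure D3:**
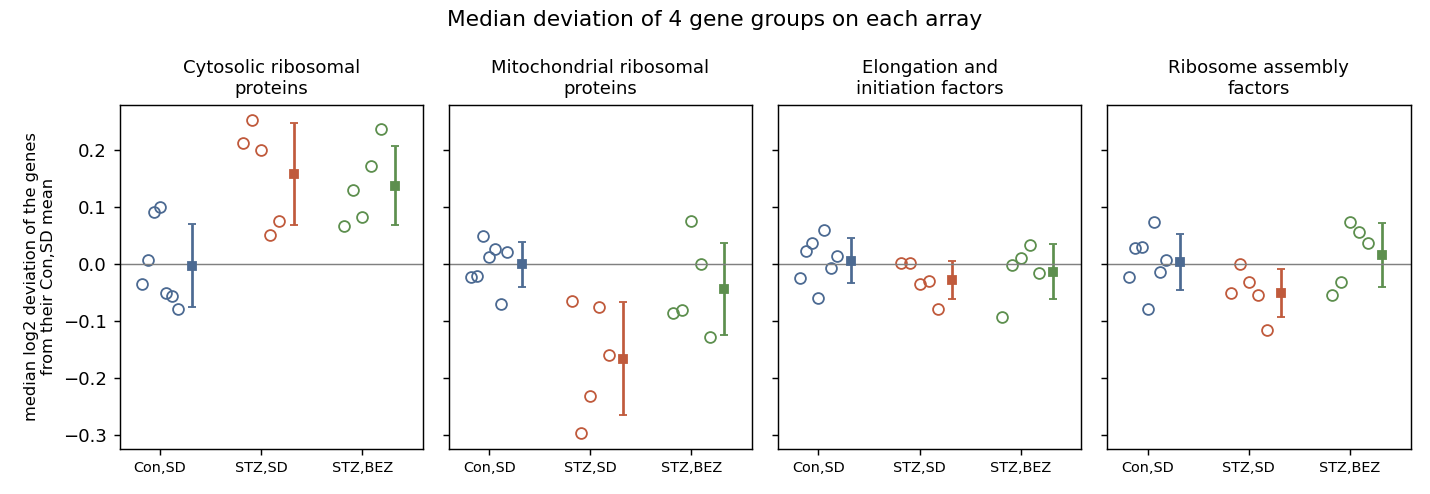
Median log2 deviation from the Con,SD mean (vertical axis) of 4 gene groups on each array of Con,SD, STZ,SD and STZ,BEZ. Circles are arrays, and squares with bars are the mean ± SD. The cytosolic ribosomal proteins lie above 0 on all diabetic arrays, the mitochondrial ribosomal proteins lie below 0 on all STZ,SD arrays, and the other panels stay within 0.12 of 0.

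Genes that work with the ribosome were read from lists. Over all genes 13.9% were higher and 11.9% were lower in STZ,SD than in Con,SD. Of 36 elongation and initiation factors, 4 were higher (11.1%) and 11 were lower (30.6%), with a median of 0.00. The falls included Eif5a (-0.60 ± 0.07), which helps the ribosome past stalling sequences, Eif4e (-0.56 ± 0.08), which binds the cap, and Eif2b3 (-0.38 ± 0.07) and Eif3m (-0.51 ± 0.09). Of 38 ribosome assembly factors, 3 were higher (7.89%) and 9 were lower (23.7%), with a median of -0.06. Ltv1, Pno1 and Riok2, factors of late maturation of the small subunit, fell by 0.53 ± 0.07, 0.50 ± 0.09 and 0.49 ± 0.09, and Wdr12, of the large subunit, fell by 0.48 ± 0.07. Among the called genes of both lists, more were lower than higher.

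RNA polymerase I, which makes the ribosomal RNA, had 1 of 14 listed genes higher (7.14%) and 3 lower (21.4%). Taf1a and Polr1e, a promoter factor and a subunit, fell by 0.54 ± 0.11 and 0.22 ± 0.05, and Rrn3, the initiation factor through which growth signals act, fell by 0.17 ± 0.06. Taf1d was higher by 0.41 ± 0.15. Of 17 other genes whose mRNAs carry a TOP motif, 3 were higher (17.6%) and 1 was lower (5.88%), with a median of 0.07. The share of rises lay near the 13.9% of all genes. The 3 were Eif3e (0.45 ± 0.10), Naca (0.33 ± 0.10), a chaperone of new chains, and the elongation factor Eef1a1 (0.27 ± 0.09), and the chaperonin subunit Cct4 fell by 0.42 ± 0.08.

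Of 15 genes that signal to the ribosome, 6 were higher (40%) and 1 was lower (6.67%), against 13.9% and 11.9% of all genes. Myc, a transcription factor that drives ribosome production, rose by 1.01 ± 0.15, the translation repressors Eif4ebp1 and Eif4ebp2 by 0.80 ± 0.17 and 0.28 ± 0.07, and Maf1, a repressor of RNA polymerase III, by 0.26 ± 0.08. Between STZ,BEZ and STZ,SD all 5 lists had 0 calls, with Nap1l1 of the TOP list at 0.24 ± 0.07, Eif4ebp1 at -0.39 ± 0.19 and Taf1a at 0.26 ± 0.12 among their smallest p. Against Con,SD the STZ,BEZ mice gave 5 higher and 10 lower among the factors of translation and 2 and 7 among the assembly factors. They gave 1 and 3 for RNA polymerase I, 3 and 1 among the other TOP mRNAs and 6 and 1 among the signalling genes. Over all genes 13.1% were higher and 8.45% were lower in that comparison.

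Many ribosomal protein genes carry small nucleolar RNAs (snoRNAs) in their introns. These guide the chemical modification of ribosomal RNA and are cut out of the host's transcript, which makes them a further readout of the same transcription units. By position in a mouse reference gene table, 20 members hold 40 snoRNA genes, of which 13 in 10 members were measured. In STZ,SD 11 of the 13 were higher than in Con,SD and 0 were lower, with a median of 0.54. The 58 measured snoRNAs of the whole table had 40 higher and 0 lower, with a median of 0.48. Over all genes 13.9% were higher.

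The snoRNA and the mRNA of 1 gene could differ. Snora33, inside Rps12, rose by 1.33 ± 0.10 where its host rose by 0.37 ± 0.11, and Snora62, inside Rpsa, rose by 0.84 ± 0.08 where its host rose by 0.36 ± 0.05. Snord73b in Rps3a1 rose by 1.03 ± 0.19, Snord16a in Rpl4 by 1.00 ± 0.11 and Snora3 in Rpl27a by 0.98 ± 0.09, while their hosts gave -0.03 ± 0.13, -0.03 ± 0.06 and -0.07 ± 0.08 and did not pass. For Rps3a1 this holds for the single-symbol probe set alone, since 2 further probe sets that list it with another symbol were called higher (0.28 and 0.29). Snora3 stood between 8.63 and 9.19 in Con,SD and between 9.77 and 9.96 in STZ,SD, with no overlap. Snord15a and Snord15b, both in Rps3, rose by 0.60 ± 0.12 and 0.54 ± 0.14, and Snora52, in Rplp2, rose by 0.49 ± 0.06. Snord42b in Rpl23a (0.08 ± 0.12) and Snord73a in Rps3a1 (0.19 ± 0.11) did not pass.

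**Figure D4:**
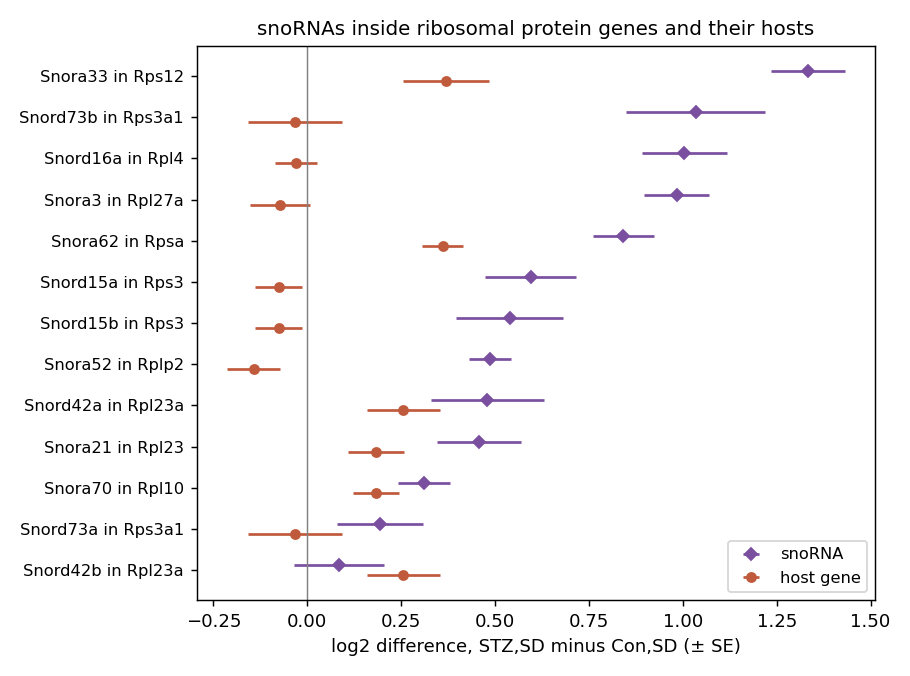
Log2 difference of STZ,SD minus Con,SD (horizontal axis) with the SE from limma, for 13 snoRNAs (diamonds) and for the ribosomal protein genes that hold them (circles). All snoRNAs but Snord42b lie to the right of their host, from 0.19 for Snord73a to 1.33 for Snora33.

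Between STZ,BEZ and STZ,SD, 0 of the 13 snoRNAs passed in limma (0 of all 58 as well), with a median difference of 0.10. Against Con,SD the STZ,BEZ mice had 12 of the 13 higher (median 0.59). Of all 58 measured snoRNAs 43 were higher (median 0.57), where 13.1% of all genes were.

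The start of the transcript was searched for pyrimidine runs of the TOP kind, because the motif is a known feature of these mRNAs and the rule did not use it. The 5-letter run CTTTT and its relatives, namely CTTTC, then CTTCC, the shifted run CCTTT and the mixed run TTCTT, which can overlap each other, were looked for from 10 bases before to 10 bases after the annotated start in RefSeq (GRCm38.p6). On the gene's own strand, 15 of 51 members with a start in the reference held at least 1 of them (29.4%), against 12% of 17491 protein-coding genes. On the other strand the shares were 9.8% and 11.7%. Counted per promoter, 26.7% of 60 promoters of members held one, and 10.5% of all 32851 promoters. Of the members called higher in STZ,SD 3 of 21 held a searched string. Of those called lower it was 2 of 4, and of those not called 10 of 26. Other pyrimidine runs were not counted. Rpl14 and Rps9, both called higher, have such runs near the start and counted as holding none, so these shares hold for the searched strings alone.

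The starts of 8 members are shown because they set genes that rose, fell or did not pass beside each other with and without a run. Each line gives 30 bases, of which the first 10 lie before the annotated start, with the runs found in capitals. Rpl7a (chr2:26910797-26910826, plus strand) and Rps18 (chr17:33955646-33955675, minus strand) rose and held runs. Rpl38 (chr11:114668570-114668599, plus strand) and Rps6 (chr4:86857348-86857377, minus strand) fell and held runs, as did Rplp2 (chr7:141447641-141447670, plus strand), which did not pass in STZ,SD. Rpl24 (chr16:55966265-55966294, plus strand), Rps28 (chr17:33824543-33824572, minus strand) and Rpl26 (chr11:68901556-68901585, plus strand) had the largest rises and none of these runs.
Rpl7a: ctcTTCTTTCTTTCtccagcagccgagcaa
Rps18: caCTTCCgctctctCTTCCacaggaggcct
Rpl38: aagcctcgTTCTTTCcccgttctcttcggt
Rps6: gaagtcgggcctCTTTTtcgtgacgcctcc
Rplp2: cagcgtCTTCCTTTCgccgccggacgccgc
Rpl24: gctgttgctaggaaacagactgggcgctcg
Rps28: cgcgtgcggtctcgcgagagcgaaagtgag
Rpl26: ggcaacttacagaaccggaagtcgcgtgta
An annotated start can lie some bases away from the start that muscle uses, and a match is a string of letters and not a measured site.

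Levels of other cells were read from markers on the same arrays. Of 12 endothelial markers, 7 were higher in STZ,SD (58.3%, against 13.9% of all genes) and 0 lower. Their mean level was 8.61 to 8.83 in Con,SD, against 8.84 to 9.09 (STZ,SD) and 8.95 to 9.06 (STZ,BEZ), without overlap with the controls. Of 8 satellite cell markers, 3 were higher in STZ,SD (37.5%) and 0 lower. Their mean level was 6.70 to 6.91 in Con,SD, against 6.97 to 7.05 (STZ,SD) and 6.94 to 7.04 (STZ,BEZ). The 18 skeletal muscle markers had 0 higher and 5 lower in STZ,SD (27.8%, against 11.9% of all genes). In STZ,BEZ against Con,SD they had 0 higher and 4 lower (22.2%, against 8.45%). The 12 leukocyte markers had 0 calls in STZ,SD and ranged from 6.52 to 6.77, 6.39 to 6.93 and 6.44 to 6.71, and the 9 fibroblast markers had 1 call, lower. The mean fibroblast marker level was 8.89 and 9.02 in STZ,SD arrays 2 and 3, whose members deviated by a median of 0.25 and 0.20, against 9.84 to 10.0 in the other STZ,SD arrays, of which array 1 had a median deviation of 0.21, and 9.63 to 9.88 in Con,SD. In STZ,BEZ it was lowest in array 5, at 9.24, and its part in the result was not tested. The endothelial and satellite cell markers thus moved with the groups as the ribosomal proteins did, and their part in the result was not tested. With the hepatocyte level of each array as a covariate, 24 members were higher and 4 lower in STZ,SD. Without Con,SD arrays 1, 3 and 4 these numbers were 27 and 3. Of these arrays only array 1 stood out in hepatocyte level (11.81). Arrays 3 and 4 stood at 9.38 and 7.65, and array 2, at 9.92, was kept. Arrays 3 and 4 were also the controls with the highest median deviation of the members.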

How the data were processed

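RNA was extracted whole from muscle and read by the authors on Affymetrix gene arrays for the mouse. RMA (background correction, quantile normalization, median polish) gave the deposited log2 levels, and Affymetrix Expression Console (version 1.2) is the program in the submitters' processing notes. The lowest level was 2.76 and the highest 14.61, and the arrays had medians of 6.22 to 6.32. Depth does not apply to arrays, and no batch was given in the sources used here.

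Of 35556 probe sets, 21789 had 1 gene symbol, 1621 several and 12146 none in the probe table, which left 19938 genes. All 17 arrays entered a single limma model (lmFit and eBayes, limma 3.58.1, R 4.3.3), which gave the 3 comparisons. P-values were adjusted by Benjamini-Hochberg over all genes and called under 0.1, as the study did with its false discovery rate. The study's own method, SAM, was run with 100 permutations as an alternative. Scripts were tested on simulated data. The highest correlation between 2 arrays of a group was 0.9962, and arrays are counted as separate mice, as the labels number them.

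The members and lists were chosen with earlier results of these data known. Genes were named by a rule: the 8 largest rises and falls called in a comparison (with under 3 calls, the 4 smallest unadjusted p), paralogues, stalk proteins, Rpsa and Rps6, up to 4 genes of each list, and snoRNAs inside members. Of the 25, 18 and 25 members this named, some are given without values. Rps9, Rpl7a, Rpl5, Rps18, Rps12, Rps13 and Rps21 in STZ,SD, and Rpl12, Rps10 and Rps19 in other comparisons, were chosen after their values were seen. Gene symbols follow the array's annotation. Gene types, snoRNA positions and start windows are from RefSeq (GRCm38.p6), and strand was not checked for snoRNAs.

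Alternatives were median centring, a second quantile normalization, other choices of probe sets, leaving out the 30% dimmest genes, eBayes trend, array weights, only 2 groups in the fit, a hepatocyte covariate, the replicate block, SAM, and leaving out arrays.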

Additional observations from a re-analysis of the deposited data

Results flagged for a closer look

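Of 102 groups of values checked, from 33 named members and the median of all members, 2 held an array that stood apart from the others of its group, and chance flags about 1 in 20 groups. Con,SD array 6 had a Rpl38 level of 12.3, the highest of the controls, with the next at 12.2 (a gap of 0.569 of the group's range). STZ,SD array 1 had a Rps4l level of 7.3, the highest of its group, with the next at 7.07 (0.786 of the range).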

How the results depend on the processing

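Against Con,SD the members called higher in STZ,SD numbered 22 to 33 under the alternatives that tested genes, and 20 to 28 when single arrays were left out, where they were 27. Those called lower were 4, and 3 to 7 when single arrays were left out. A second quantile normalization gave 33 higher and 2 lower. In STZ,BEZ against Con,SD the members called higher were 22 to 29 and lower 3 to 6 when single arrays were left out, and a second quantile normalization gave 2 lower. Counting probe sets in place of genes gave larger numbers by construction, 104 higher and 14 lower in STZ,SD and 100 and 17 in STZ,BEZ for every probe set with 1 symbol, and 127 and 17, and 119 and 15, with probe sets of several symbols added. Median centring gave 22 higher and 5 lower in STZ,SD. SAM gave 26 and 4 in STZ,SD, and 29 and 5 in STZ,BEZ. Between STZ,BEZ and STZ,SD the count was 0 throughout the alternatives run.

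The labels give the groups the same replicate numbers. Same-numbered arrays did not deviate together over all genes. The correlations were -0.044 to 0.072 for STZ,SD and Con,SD, -0.239 to -0.032 for STZ,BEZ and STZ,SD and -0.085 to 0.083 for STZ,BEZ and Con,SD. They gave no sign that the numbers pair the mice, though a pairing that moved few genes would not show here. With the replicate block 22 members were higher and 4 lower in STZ,SD, 0 and 0 between the diabetic groups, and 23 and 4 in STZ,BEZ against Con,SD. Of the 4 lower in STZ,SD, 1 (Rpl3l) was shared with the fit without the block, since Rpl38, Rpl7l1 and Rps6 lost their calls and Rpl39l, Rpl6 and Rps7 gained one. The call of Rps21 in STZ,SD was also lost there (0.25).

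The median difference of the members stayed between 0.11 and 0.19 in STZ,SD, -0.03 and 0.01 between the diabetic groups and 0.10 and 0.22 in STZ,BEZ against Con,SD. Of 805 values of 31 members in STZ,SD against Con,SD, 759 kept their side of the threshold, 33 lost the call and 13 gained one. Of 675 values of 26 members in STZ,BEZ against Con,SD, 622 kept it, 47 lost it and 6 gained it. None of these changed direction.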
